A study of Homo sapiens with 12 samples.

Results

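The genes described here are 10 genes of glycolysis and lactate export, SLC2A1, HK1, HK2, PFKP, ALDOA, PGK1, ENO1, PKM, LDHA and SLC16A3. They were chosen by name along the route from glucose uptake to lactate release, and the transcript rows of each were summed to a gene level. All 10 were found among the 39099 genes that the deposited table yields, and all 10 passed the filter on low values that left 14767 genes for testing. Their levels lay between 7.03 and 2772 TPM in every library.

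The samples were ASPC1 and PANC1, both established human pancreatic cancer cell lines. Each line had a mock group, a group with TAp63 overexpressed and a group with deltaNp63 overexpressed, and each of the 6 groups held 2 libraries that the labels call biological replicates. TAp63 and deltaNp63 are the TP63 protein classes made from an upstream and an internal promoter. How the constructs were delivered, for how long, in clones or pools, and what the mock cells carried are not given in the sources used here. Levels are in TPM, a relative abundance scaled to transcript length. TPM does not record how many reads a library had, so depth is unknown and precision comes from the replicates.

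Glycolysis turns glucose into pyruvate with a net gain of ATP. Glucose enters through facilitated transporters, is trapped by hexokinase, committed by phosphofructokinase, split by aldolase and carried through the ATP-yielding steps to pyruvate kinase. Lactate dehydrogenase reduces pyruvate to lactate, which leaves the cell through proton-coupled monocarboxylate transporters, and tumour cells often run this route with oxygen present. Most steps have several isozymes, and many of the genes are targets of the hypoxia-inducible factors HIF1A and EPAS1.

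PKM was read at the level of its exons, because its transcripts differ by a pair of mutually exclusive exons of equal length. One is used in PKM1, the form of muscle and brain, and the other in PKM2, the form of most proliferating cells. Both exons are given below on the transcript strand, with capitals at the 62 bases that differ between them. They lie on the minus strand of chromosome 15 (hg38), the PKM1 exon at chr15:72203022-72203188 in ENST00000319622 and the PKM2 exon at chr15:72202454-72202620 in ENST00000335181.
PKM1 exon: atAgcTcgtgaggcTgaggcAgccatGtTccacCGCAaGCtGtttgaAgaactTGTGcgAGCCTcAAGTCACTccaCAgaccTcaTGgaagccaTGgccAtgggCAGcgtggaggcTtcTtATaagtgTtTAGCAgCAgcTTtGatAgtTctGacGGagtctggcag
PKM2 exon: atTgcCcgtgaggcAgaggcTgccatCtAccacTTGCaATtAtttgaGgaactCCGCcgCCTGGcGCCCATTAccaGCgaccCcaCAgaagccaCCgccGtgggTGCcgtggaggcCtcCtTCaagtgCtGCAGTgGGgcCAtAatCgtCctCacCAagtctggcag
The exons are 167 bases each and 62.9% identical.

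Promoter sequence is shown for HK2, LDHA and SLC16A3, which are known HIF targets and which differed between the cell lines in opposite directions. Windows of 300 bases around each RefSeq start (GRCh38.p14; 250 bases before and 50 after) were searched for ACGTG and GCGTG, the core of the hypoxia response element, on both strands, where a CACGTG counts once on each strand. Capitals mark the matches, and only bases outside annotated exons are printed. The stretches are chr2:74833988-74834126 for HK2, chr11:18394313-18394559 for LDHA and chr17:82228792-82229041 for SLC16A3, all on the plus strand.
HK2: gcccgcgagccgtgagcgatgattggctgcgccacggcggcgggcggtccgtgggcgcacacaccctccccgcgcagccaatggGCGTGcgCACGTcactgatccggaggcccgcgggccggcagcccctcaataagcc
LDHA: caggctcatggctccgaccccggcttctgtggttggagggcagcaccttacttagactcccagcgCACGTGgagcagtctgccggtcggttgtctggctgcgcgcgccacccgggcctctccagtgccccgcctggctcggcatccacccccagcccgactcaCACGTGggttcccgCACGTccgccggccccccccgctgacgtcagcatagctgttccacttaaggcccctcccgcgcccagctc
SLC16A3: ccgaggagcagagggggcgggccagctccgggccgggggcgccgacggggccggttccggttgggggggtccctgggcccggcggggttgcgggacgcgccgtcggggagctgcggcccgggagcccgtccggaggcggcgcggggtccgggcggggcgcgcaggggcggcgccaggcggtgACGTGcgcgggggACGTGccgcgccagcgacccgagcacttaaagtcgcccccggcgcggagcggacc
The LDHA stretch holds 5 matches, and those of HK2 and SLC16A3 hold 2 each. Of the 10 windows, 9 hold at least 1 match, the exception being PFKP, and 48.4% of all 35116 windows of this length do. The 10 windows are 56% to 82.7% G and C. The share over all windows was not matched for this, so no enrichment is read from it. The PGK1 window lies 39032 bases from the start of the transcript with most of the PGK1 level. A match describes the letters of the window and is no measure of binding.

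The labels were checked on TP63 first. TP63 was at 1.10 and 0.817 TPM in ASPC1 mock, 102 and 170 TPM with TAp63, and 245 and 350 TPM with deltaNp63. In PANC1 it was at 0.119 and 0.0245 TPM in mock, 324 and 342 TPM with TAp63, and 815 and 1187 TPM with deltaNp63. Every overexpressing library thus stood above both mock libraries of its line, and in each line TP63 was higher with deltaNp63 than with TAp63. The libraries were alike in breadth, with 12212 to 13161 genes at 1 TPM or more, and replicate pairs correlated at r = 0.987 to 0.994 across tested genes. All 5 epithelial markers were detected, but EPCAM was at 1256 to 1410 TPM in ASPC1 and 42.6 to 49.5 TPM in PANC1, and CDH1 at 2.37 to 3.74 TPM in PANC1. Of the mesenchymal markers, VIM was at 2000.5 TPM or more in every library of both lines. ZEB1 was at 11.8 to 18.1 TPM in ASPC1 and 20.5 to 27.5 TPM in PANC1. CDH2 was at most 0.0219 TPM in ASPC1 and at 19.5 to 22.3 TPM in PANC1. None of the leukocyte, endothelial and acinar markers reached 1 TPM in any library, and of the fibroblast markers LUM did so in ASPC1 (177 to 288 TPM) and COL1A1 in PANC1 (80.8 to 111 TPM). The part of these line-specific marker levels in the results was not tested.

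The 10 genes together made up 7867 ± 19.2 TPM in ASPC1 mock and 8629 ± 94.5 TPM in PANC1 mock (SD, n = 2). ENO1, ALDOA, PKM and LDHA held the top 4 places in all 6 groups. In ASPC1 mock, ENO1 and ALDOA overlapped at the top, followed by LDHA, PKM, SLC2A1, PFKP, PGK1, SLC16A3, HK2 and HK1, each apart from the next. In PANC1 mock the order was ENO1, ALDOA, PKM, LDHA, SLC16A3, PFKP, PGK1, HK1, SLC2A1 and HK2, with an overlap for PFKP and PGK1 alone. SLC2A1, the entry of the route, thus stood above SLC16A3, its exit, in ASPC1 and below it in PANC1, and HK2 stood above HK1 in ASPC1 and below it in PANC1. In bulk RNA, fewer expressing cells and less RNA per cell cannot be told apart. Places between PGK1, LDHA and the other genes depend on how reads were assigned to short transcripts, as given with those genes.

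**Figure D1:**
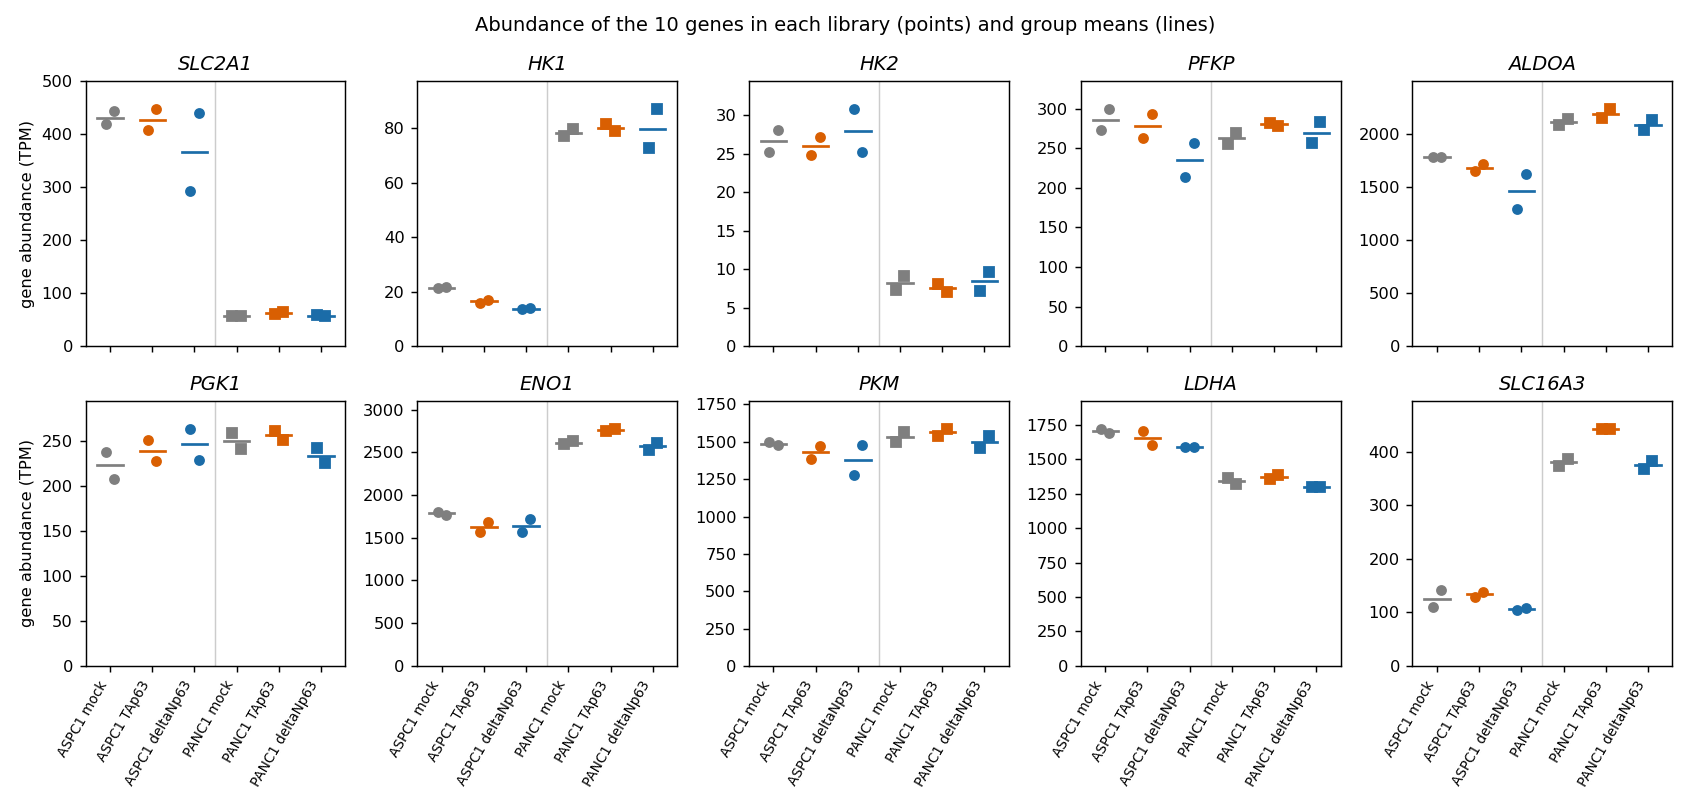
Level of each gene in TPM (vertical axes, from 0, on separate scales) in the 12 libraries, with circles for ASPC1, squares for PANC1 and a line at each group mean of 2 libraries. The 12 libraries separate by cell line for 7 genes, all but PFKP, PGK1 and PKM, and the first ASPC1 deltaNp63 library is the lowest ASPC1 library for SLC2A1 at 293 TPM.

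The largest differences were between the cell lines. Comparing PANC1 mock with ASPC1 mock, 7 of 10 genes passed the limma test: HK1, SLC16A3, ENO1 and ALDOA were higher in PANC1, and SLC2A1, HK2 and LDHA were higher in ASPC1. The same test called 72.5% of all 14767 genes, 44.6% higher and 27.9% lower in PANC1, so the share of 7 in 10 is near the background and says nothing particular about glycolysis. The median difference of the 10 genes was 0.11 on the log2(TPM + 1) scale, beside 0.24 over all genes. Quantile normalization brought the median of all genes to 0.08 and median centring to 0.07. Over all 12 libraries, the 6 of one line did not overlap the 6 of the other for the same 7 genes, beside 70.2% of all genes. All log2 values below are differences of log2(TPM + 1), given with limma's Benjamini-Hochberg adjusted p over all tested genes, for which the threshold was 0.05. Gene positions are given on hg38, from GENCODE v44.

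SLC2A1 encodes GLUT1, the basal glucose transporter of most cultured cells (ENSG00000117394, chr1:42925353-42958893, minus strand). It was at 419 and 443 TPM in ASPC1 mock, 409 and 447 TPM with TAp63, and 293 and 439 TPM with deltaNp63. In PANC1 it was at 56.2 and 57.6 TPM in mock, 60.4 and 65.5 TPM with TAp63, and 58.1 and 58.0 TPM with deltaNp63. The lowest ASPC1 library was far above the highest PANC1 library. The mock means differed 7.58-fold, with a log2 difference of -2.90 for PANC1 minus ASPC1 (SE 0.152, limma adjusted p = 6.15e-08). This was the largest line difference of the 10 genes.

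HK1 and HK2 encode hexokinases, which phosphorylate glucose and so trap it in the cell; both bind mitochondria, and HK2 is the form often induced in tumours. HK1 (ENSG00000156515, chr10:69269984-69401884, plus strand) was at 21.4 and 21.6 TPM in ASPC1 mock, 15.9 and 17.1 TPM with TAp63, and 13.5 and 13.9 TPM with deltaNp63. PANC1 had 76.9 and 79.5 TPM in mock, 81.3 and 78.8 TPM with TAp63, and 72.6 and 86.8 TPM with deltaNp63. HK1 was therefore the higher hexokinase of the pair in PANC1 and the lower in ASPC1, and its 3 ASPC1 groups did not overlap. The mock means were 3.64-fold higher in PANC1, a log2 difference of 1.82 (SE 0.0964, limma adjusted p = 6.70e-08).

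HK2 (ENSG00000159399, chr2:74834127-74893359, plus strand) went the other way. It was at 25.2 and 28.1 TPM in ASPC1 mock, 24.9 and 27.1 TPM with TAp63, and 30.7 and 25.2 TPM with deltaNp63. PANC1 had 7.32 and 9.12 TPM in mock, 8.13 and 7.03 TPM with TAp63, and 7.23 and 9.58 TPM with deltaNp63. Within each line the 3 groups overlapped. The mock means were 3.24-fold higher in ASPC1, with a log2 difference of -1.59 for PANC1 minus ASPC1 (SE 0.159, limma adjusted p = 8.26e-06).

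PFKP encodes the platelet isoform of phosphofructokinase, which catalyses the committed step (ENSG00000067057, chr10:3066333-3137718, plus strand). It was at 273 and 299 TPM in ASPC1 mock, 263 and 294 TPM with TAp63, and 213 and 256 TPM with deltaNp63. In PANC1 its range over the 6 libraries was 256 to 283 TPM. The 2 lines overlapped, and the log2 difference of the mock groups was -0.12 (95% interval -0.35 to 0.11, limma adjusted p = 0.302). With median centring it was -0.30 and passed (adjusted p = 0.00902).

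ALDOA encodes the aldolase that splits fructose 1,6-bisphosphate (ENSG00000149925, chr16:30064164-30070457, plus strand). It was at 1780.1 and 1777 TPM in ASPC1 mock, 1646 and 1710 TPM with TAp63, and 1292 and 1621 TPM with deltaNp63. In PANC1 it ranged from 2035 to 2226 TPM with a median of 2130 TPM. The mock means were 1.18-fold higher in PANC1, a log2 difference of 0.24 that equals the median of all genes (SE 0.0916, limma adjusted p = 0.0345). The call is a narrow one. It was lost without either replicate of ASPC1 mock (adjusted p = 0.0951 and 0.10), of PANC1 mock (0.0836 and 0.131) or of PANC1 TAp63 (0.0512 and 0.0513), with median centring (0.421), without trend (0.0766), with no filter (0.0965) and with protein-coding transcripts only (0.307).

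PGK1, ENO1 and PKM encode the later enzymes of the route: phosphoglycerate kinase and pyruvate kinase make ATP, and enolase makes the phosphoenolpyruvate that PKM uses. PGK1 (ENSG00000102144, chrX:77910739-78129295, plus strand) was at 208 to 264 TPM in ASPC1 and 226 to 262 TPM in PANC1, and the lines overlapped. On average 86.1% of the PGK1 level sat on a 702-base transcript with no defined coding sequence, and 13.2% on the 4812-base PGK1-201. The log2 difference of the mock groups was 0.17 (95% interval -0.05 to 0.39, limma adjusted p = 0.142), and with protein-coding transcripts only it was 0.34 and passed the test (adjusted p = 0.0221). The PGK1 result therefore turns on which transcripts are counted.

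ENO1 (ENSG00000074800, chr1:8861000-8879190, minus strand) was at 1798 and 1771 TPM in ASPC1 mock, 1568 and 1684 TPM with TAp63, and 1566 and 1719 TPM with deltaNp63. In PANC1 it ranged from 2530.3 to 2772 TPM, above every ASPC1 library. The mock means were 1.46-fold higher in PANC1, a log2 difference of 0.55 (SE 0.0627, limma adjusted p = 2.19e-05). A single transcript, ENO1-201, carried 98.7% of the ENO1 level on average.

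PKM (ENSG00000067225, chr15:72199029-72231819, minus strand) was at 1497 and 1478 TPM in ASPC1 mock and 1498 and 1567 TPM in PANC1 mock. The log2 difference was 0.04 (95% interval -0.12 to 0.21, limma adjusted p = 0.620). With quantile normalization it was 0.22 and passed (adjusted p = 0.0449), and with median centring it was -0.13 and did not pass. Transcripts with the PKM2 exon printed above held 98.8% to 99.1% of the TPM on either exon in all 12 libraries, and transcripts with the PKM1 exon held 13.2 to 18.2 TPM. The PKM2 share was 98.9% ± 0.102 in ASPC1 mock, 98.9% ± 0.0116 with TAp63 and 98.9% ± 0.00574 with deltaNp63 (SD, n = 2). In PANC1 it was 98.8% ± 0.130 in mock, 99.0% ± 0.144 with TAp63 and 98.8% ± 0.0374 with deltaNp63 (SD, n = 2). PKM transcripts were thus nearly all of the PKM2 kind in both lines, with each construct and without. Transcripts with either exon held 96.9% to 98.0% of the PKM level.

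LDHA encodes the lactate dehydrogenase subunit that favours lactate formation (ENSG00000134333, chr11:18394560-18408425, plus strand). It was at 1719 and 1687 TPM in ASPC1 mock, 1702 and 1601 TPM with TAp63, and 1591 and 1590.4 TPM with deltaNp63. The PANC1 levels were 1364 and 1317 TPM in mock, 1355 and 1384 TPM with TAp63, and 1299 and 1299.8 TPM with deltaNp63. Every ASPC1 library was above every PANC1 library. The mock means were 1.27-fold higher in ASPC1, with a log2 difference of -0.35 for PANC1 minus ASPC1 (SE 0.0550, limma adjusted p = 0.00025). With quantile normalization it was -0.09 and did not pass (adjusted p = 0.199). The LDHA level is spread over many transcripts, the highest a 576-base one with 28.6% on average.

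SLC16A3 encodes MCT4, the lactate exporter of strongly glycolytic cells (ENSG00000141526, chr17:82217934-82261129, plus strand). It was at 109 and 141 TPM in ASPC1 mock, 128 and 139 TPM with TAp63, and 105 and 109 TPM with deltaNp63. The PANC1 levels were 374 and 387 TPM in mock, 442.8 and 442.8 TPM with TAp63, and 368 and 384 TPM with deltaNp63. The lowest PANC1 library was above the highest ASPC1 library. The mock means were 3.04-fold higher in PANC1, a log2 difference of 1.61 (SE 0.107, limma adjusted p = 3.75e-07). SLC16A3 overlaps CSNK1D, which reached up to 189 TPM, and how reads in the overlap were assigned is not given in the sources used here.

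**Figure D2:**
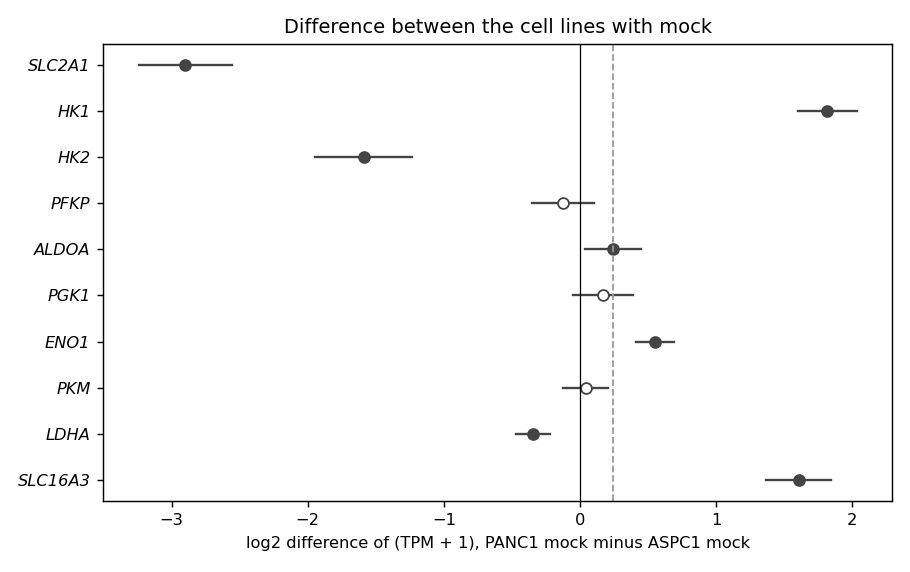
Difference between the mock groups of the cell lines for each gene, in route order, on the log2(TPM + 1) scale (PANC1 minus ASPC1; bars, 95% interval; filled points, limma adjusted p under 0.05; dashed line, the median of all genes at 0.24). SLC2A1 at -2.90 and HK1 at 1.82 lie farthest from 0 in each direction.

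The lines also differed in which isozyme carried a step. In ASPC1 the hexokinase transcripts were mostly HKDC1, a hexokinase with restricted expression, which held 79.9% to 85% of the family's summed TPM, while HK1 held 5.44% to 9.13%. In PANC1 HK1 held 86.8% to 89.7% and HKDC1 2.26% to 3.62%. HKDC1 itself was at 187 to 238 TPM in ASPC1 and 1.98 to 3.62 TPM in PANC1, with a log2 difference of -5.95 (SE 0.191, limma adjusted p = 1.57e-09). The lower HK1 level in ASPC1 thus stood beside a higher level of HKDC1.

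At the lactate dehydrogenase step, LDHB, the subunit that favours pyruvate formation, was listed at 0 in all 6 ASPC1 libraries and at 520.4 to 577 TPM in PANC1. A listed 0 can be a failed estimate as well as an absent transcript, and TPM cannot tell these apart, so the ASPC1 shares of this family hold only as listed. As listed, LDHA held 99.8% of the family in ASPC1 and between 69.2% and 71.4% in PANC1. Of the monocarboxylate transporters, SLC16A1 (MCT1, which also imports lactate) held 28.9% to 41.1% in ASPC1 and 6.56% to 7.72% in PANC1, where SLC16A3 held the rest. The glucose transporter sum took SLC2A1, SLC2A2, SLC2A3, SLC2A4, SLC2A6, SLC2A8, SLC2A10, SLC2A12 and SLC2A14, and left out further SLC2A genes. SLC2A1 held 87.3% to 88.4% of this sum in ASPC1 and 56.4% to 59.4% in PANC1. SLC2A6 and SLC2A8, transporters found mainly inside the cell, held most of what remained in PANC1. ALDOA held 99.5% to 99.9% and ENO1 98.5% to 99.3% of their families over both lines, and PFKP was between 72.0% and 82.4% of its own. The isozyme families were set side by side after line differences had been seen, and no share was tested.

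**Figure D3:**
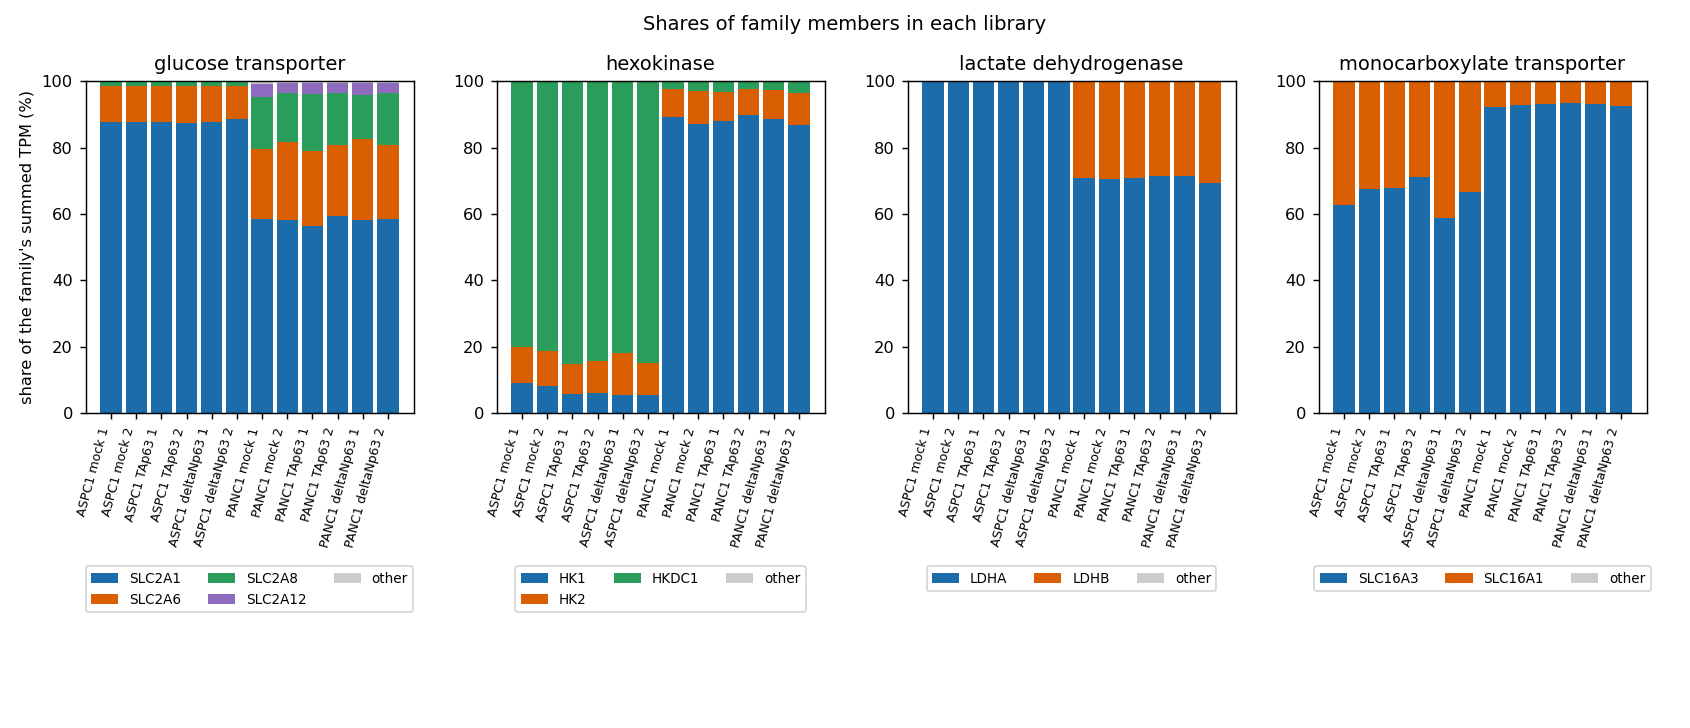
Share of each family's summed TPM held by each gene, in percent, with 1 bar for each of the 12 libraries. HKDC1 and HK1 trade places between the lines, and LDHB, listed at 0 in ASPC1, appears in the PANC1 bars alone, at 28.6% to 30.8%.

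Differences between constructs and mock were small beside the largest differences between the lines. In ASPC1 with deltaNp63, 1 of 10 genes passed the limma test: HK1 was lower than in mock, while the test called 6.51% of all genes lower and 7.14% in either direction. The 4 libraries were those given above, 21.4 and 21.6 TPM in mock against 13.5 and 13.9 TPM, a mean lower by 36.1%. The log2 difference was -0.61 (SE 0.0964, 95% interval -0.83 to -0.40, limma adjusted p = 0.0124). HK1 was also the gene with the largest difference under TAp63 in ASPC1, lower by 23.2%. That log2 difference of -0.36 (SE 0.0964) did not pass (limma adjusted p = 0.140). HK1 was thus ordered mock, TAp63, deltaNp63 from high to low in ASPC1, without overlap, and the 2 constructs differed by 0.25, which did not pass (adjusted p = 0.628).

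The HK1 call with deltaNp63 depends on the libraries and the scaling. The adjusted p was 0.0853 without the first ASPC1 mock replicate, 0.0682 without the second and 0.0606 without the first ASPC1 deltaNp63 replicate. It was 0.0588 with quantile normalization, where the log2 difference was -0.41. It was 0.179 with a model of the 6 ASPC1 libraries, and 0.363 with a model of the 4 libraries compared. Those 2 models called only 0.0542% and 0% of all genes. They left the HK1 difference at -0.61 (SE 0.0854 and 0.0961), so the lost call there is no change in HK1 itself. The log2 difference stayed negative under all 23 alternatives, between -0.65 and -0.40, but most of them could not have reversed it. No trend, other filters, fewer groups or the replicate block leave the difference of group means unchanged. Leaving out 1 library could not reverse groups that do not overlap. The scaling and the choice of transcripts could have done so. It was -0.41 with quantile normalization, -0.40 with median centring and -0.65 with protein-coding transcripts only. The median of all genes in this comparison was -0.12, so part of any fall on this scale is shared with the whole table.

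The other 9 genes did not pass in ASPC1 with deltaNp63. ALDOA had a log2 difference of -0.30 (SE 0.0916, limma adjusted p = 0.0705) and PFKP of -0.29 (SE 0.102, adjusted p = 0.0997). With median centring they were -0.090 for ALDOA and -0.080 for PFKP. SLC2A1 had -0.27 (SE 0.152, adjusted p = 0.277) and SLC16A3 -0.21 (SE 0.107, adjusted p = 0.211), and with median centring -0.058 and -0.0070. ENO1 at -0.12, PKM at -0.11 and LDHA at -0.10 were near the median of all genes and turned positive with median centring (0.086, 0.093 and 0.11). HK2 was at 0.06 and PGK1 at 0.14. The median of the 10 was -0.17, beside -0.12 over all genes. For 7 of 10 genes both deltaNp63 libraries were below both mock libraries, beside 41.1% of all genes.

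The first ASPC1 deltaNp63 library was the low one for SLC2A1 (293 against 439 TPM), PFKP (213 against 256 TPM), ALDOA (1292 against 1621 TPM) and PKM (1280.3 against 1476 TPM). The summed level of the 10 genes was 6648 TPM in it and 7479 TPM in the second, where mock was at 7881 and 7854 TPM. Without the second replicate, 5 genes passed as lower (HK1, ALDOA, PFKP, PKM and SLC2A1), beside 27.5% of all genes called. Without the first replicate, 0 passed, beside 0.772% of all genes. Without the first or the second mock replicate the log2 difference of HK1 was -0.62 and -0.60. Those fits also called fewer of all genes than the fit with all libraries. With protein-coding transcripts only, ALDOA passed too (adjusted p = 0.0358).

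With TAp63 in ASPC1, 0 of 10 genes passed the limma test, beside 0.637% of all genes. An unadjusted p under 0.05 was found for 1 gene, HK1, beside 2233 of all 14767 genes. Apart from HK1, log2 differences ran from -0.13 for ENO1 to 0.10 for SLC16A3, and PGK1 was also at 0.10. The others were ALDOA at -0.08, PKM at -0.06, LDHA at -0.05, PFKP at -0.04, HK2 at -0.03 and SLC2A1 at -0.01, beside a median of all genes of -0.08. None of these 9 differences passed the test.

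TAp63 and deltaNp63 were compared directly in ASPC1, and 0 of 10 genes passed with limma, beside 0.0203% of all genes. An unadjusted p under 0.05 was found for 4 of the 10, beside 1170 of all 14767 genes. Log2 differences, TAp63 minus deltaNp63, lay between -0.10 and 0.32, with 95% intervals between -0.45 and 0.59. The unadjusted intervals of HK1, PFKP, ALDOA and SLC16A3 lay above 0, but the smallest adjusted p was 0.628. Without the second ASPC1 deltaNp63 replicate, SLC2A1 and ALDOA passed (adjusted p = 0.0163 and 0.0178), which makes 2, beside 6.94% of all genes called in that fit.

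In PANC1 no gene of the 10 passed in any construct comparison. With TAp63 against mock the limma count was 0 of 10, beside 0.00677% of all genes. Of the 10, 0 had an unadjusted p under 0.05, beside 503 of all 14767 genes. Log2 differences lay between -0.10 and 0.22 (95% intervals between -0.45 and 0.48). The upper end was SLC16A3, whose 2 TAp63 libraries at 442.8 TPM were above both mock libraries, as were those of 4 other genes, beside 22.0% of all genes. With deltaNp63 against mock the limma count was 0 of 10, beside 0.0406% of all genes. Again 0 had an unadjusted p under 0.05, beside 345 of all genes. Log2 differences lay between -0.10 and 0.04 (95% intervals between -0.33 and 0.38). With TAp63 against deltaNp63 the limma count was 0, beside 0.0271% of all genes, and differences lay between -0.12 and 0.24. There too 0 had an unadjusted p under 0.05, beside 437 of all genes. HK1, the gene that passed in ASPC1, had a log2 difference of 0.03 with TAp63 and 0.02 with deltaNp63 in PANC1. The 10 genes summed to 9006 ± 122 TPM (SD, n = 2) under TAp63 in PANC1. Under deltaNp63 they summed to 8478 ± 208 TPM (SD, n = 2). The TAp63 libraries, at 8920 and 9092 TPM, were above both mock libraries, at 8562 and 8696 TPM. The deltaNp63 libraries, at 8331 and 8625 TPM, overlapped those of mock. No sum was tested.

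Whether a construct acted differently in the lines was tested as an interaction, the PANC1 effect minus the ASPC1 effect. For deltaNp63, 0 of 10 genes passed with limma, beside 0.582% of all genes. An unadjusted p under 0.05 was found for 2 of the 10, beside 2431 of all 14767 genes. HK1 had the largest difference, 0.63 (SE 0.136, 95% interval 0.33 to 0.94, limma adjusted p = 0.106). For TAp63, 0 of 10 passed, beside 0.0745% of all genes. An unadjusted p under 0.05 was found for 2 of the 10, beside 1540 of all genes. HK1 was among the 2, with 0.40 (limma adjusted p = 0.405). A fall of HK1 in ASPC1 alone is therefore not shown. Without the second ASPC1 deltaNp63 replicate, 4 genes passed for deltaNp63 (HK1, SLC2A1, ALDOA and PFKP), beside 14.9% of all genes called in that fit.

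**Figure D4:**
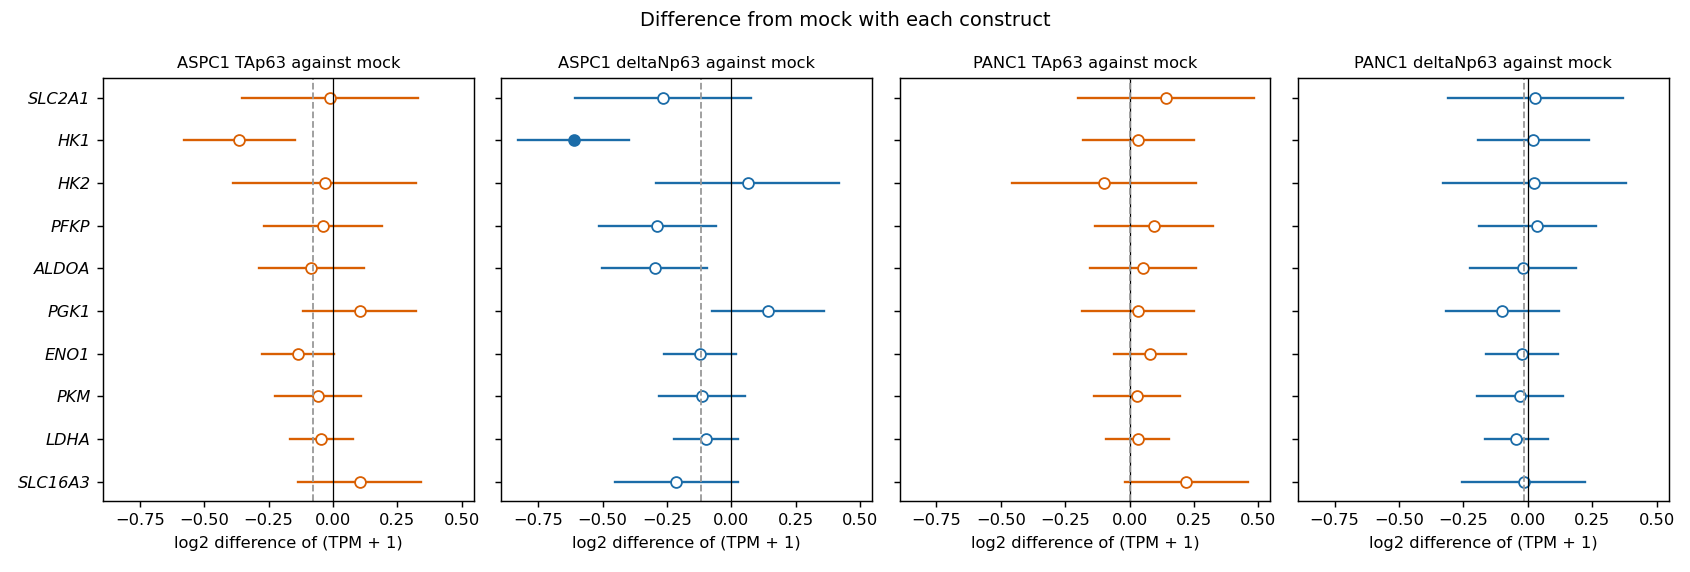
Difference from mock for each gene with each construct in each line, on the log2(TPM + 1) scale (bars, 95% interval; filled point, limma adjusted p under 0.05; dashed line, the median of all genes). HK1 with deltaNp63 in ASPC1, at -0.61, is the filled point, and the PANC1 points lie between -0.10 and 0.22.

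The rest of the pathway was read from 7 further lists with 94 genes, of which 75 passed the filter. In ASPC1 with deltaNp63, 9 of the 75 genes were lower and 0 higher by the limma test (12%, beside 7.14% of all genes). Among 14 other glycolysis enzymes, 11 had negative and 2 positive differences, and 4 passed as lower, beside 6.51% of all genes. The median log2 difference of the 14 was -0.30 beside -0.12 over all genes. GPI, the isomerase after hexokinase, fell by 0.53 on the log2 scale (limma adjusted p = 0.0295), from 114 and 135 TPM in mock to 77.7 and 93.9 TPM. ENO2, the neuronal enolase, fell by 0.73 from a low level (adjusted p = 0.0317), and PFKM, the muscle phosphofructokinase, by 0.51 (adjusted p = 0.0486). GAPDH at -0.19 (adjusted p = 0.190) and TPI1 at -0.42 (adjusted p = 0.111), the central enzymes of the route, did not pass; these names were added after their values were seen.

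The pentose phosphate pathway branches off after hexokinase to make NADPH and ribose. All 7 of its tested genes had negative differences, where the median of all genes was -0.12. Beside 6.51% of all genes, 2 of the 7 passed as lower. One of them, RPIA, the ribose phosphate isomerase, fell by 0.41 (limma adjusted p = 0.0481). In gluconeogenesis all 4 differences were negative and 1 of 4 passed. This was FBP1, which reverses the phosphofructokinase step and fell by 0.58 (limma adjusted p = 0.0481). DLAT, a subunit of pyruvate dehydrogenase, fell by 0.41 (limma adjusted p = 0.0490), the 1 of 10 genes of pyruvate entry to mitochondria that passed. HNRNPA2B1, a splicing factor that acts on the PKM exons, fell by 0.38 (limma adjusted p = 0.0318), the 1 of 18 regulators that passed. The PKM2 share stayed between 98.8% and 99.1%. Of 16 HIF targets outside glycolysis and of 6 other transporters, 0 passed with limma. An unadjusted p under 0.05 was found for 2 and 1 of them, beside 4383 of all 14767 genes.

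These list counts rest on few libraries. When 1 replicate was left out, the count of 9 lower fell in every fit but that without the second ASPC1 deltaNp63 replicate, where it rose. The share of all genes called fell or rose with it, so the count is to be read beside that share. Each of these fits leaves 1 library in a group. With quantile normalization, with the groups compared only and with the 6 libraries of the line the count was 0. These fits called 1.35%, 0% and 0.0542% of all genes. With median centring of the libraries the count was 1 (beside 2.84% of all genes) and with no filter on low values 1 (0.824%). With limma without trend it was 3 (4.79%) and with a pseudocount of 0.1 it was 5 (5.88%). It rose to 12 with the replicate block (11.1%) and to 11 with protein-coding transcripts only (12.5%). With a mean of at least 5 TPM it was 11 of 65 genes (15.3%). In the other construct comparisons and both interactions, 0 of the 75 passed with limma. The number of the 75 at an unadjusted p under 0.05 was 13 for TAp63 against mock and 9 for TAp63 against deltaNp63 in ASPC1. Over all 14767 genes these counts were 2233 and 1170. In PANC1 it was 1 for TAp63 against mock, 0 for deltaNp63 against mock and 1 for TAp63 against deltaNp63. Over all genes these were 503, 345 and 437. In the interactions it was 7 for TAp63 and 16 for deltaNp63, beside 1540 and 2431 of all genes. Without either ASPC1 deltaNp63 replicate, 3 of the 75 genes passed as lower in ASPC1 with TAp63, beside 2.79% and 2.76% of all genes.

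**Figure D5:**
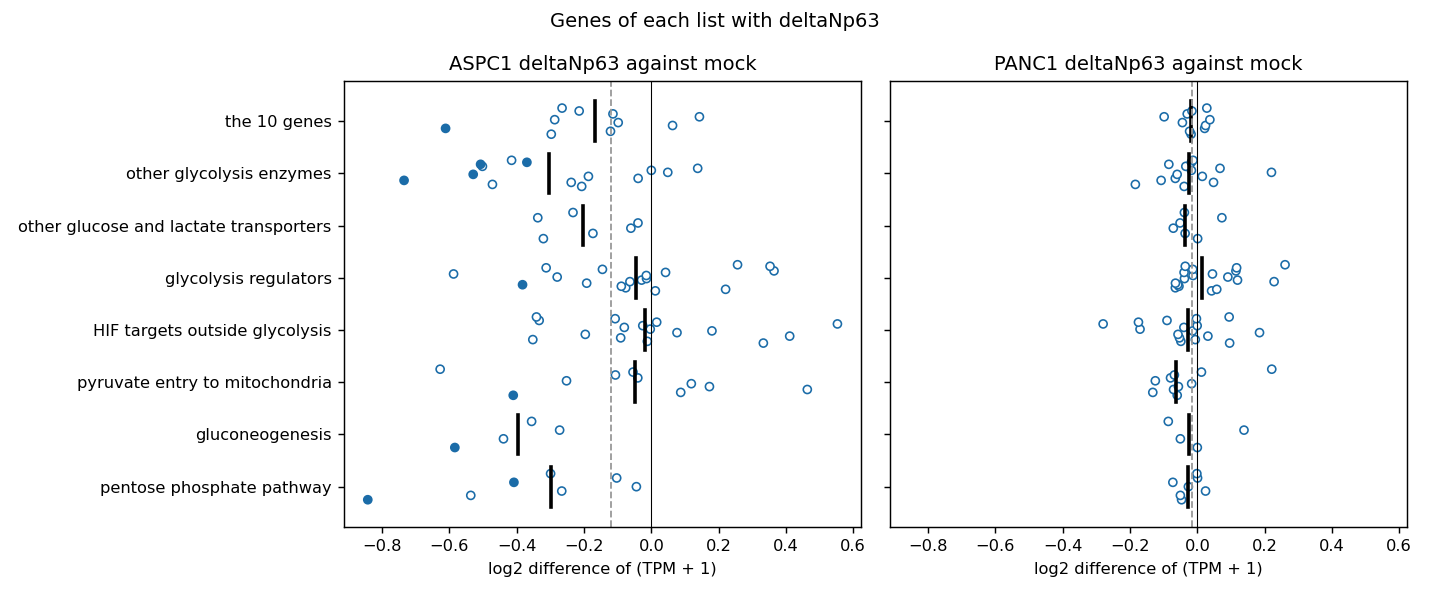
Difference from mock with deltaNp63 for each tested gene of the 10 and of the 7 other lists, in ASPC1 (left) and PANC1 (right), on the log2(TPM + 1) scale (filled points, limma adjusted p under 0.05; black bars, list medians; dashed line, the median of all genes at -0.12 in ASPC1 and -0.02 in PANC1). The filled points, HK1 and 9 other genes, lie below 0 in ASPC1, and PANC1 has none.

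Between the lines, 31 of the 75 genes were higher and 30 lower in PANC1 (81.3%, beside 72.5% of all genes). Several of the largest differences were at steps next to the 10 genes. BPGM, which makes 2,3-bisphosphoglycerate, was at 1.75 to 2.76 TPM in ASPC1 and 26.1 to 31.0 TPM in PANC1. EMB, a chaperone of monocarboxylate transporters, was at 0.982 to 1.69 TPM and 45.9 to 54.4 TPM. Both were higher in PANC1, like HK1 and SLC16A3.

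Other neighbours were higher in ASPC1, like SLC2A1. TXNIP, which promotes the removal of GLUT1 from the cell surface, was at 12.3 to 18.5 TPM in ASPC1 and at most 0.511 TPM in PANC1. FBP1 was at 55.6 to 104 TPM in ASPC1 and at most 0.0329 TPM in PANC1. CA9, a carbonic anhydrase induced in hypoxia, was at 32.1 to 58.9 TPM in ASPC1 and at most 0.25 TPM in PANC1, while BNIP3, a mitophagy receptor also induced in hypoxia, was at 0.476 to 0.610 TPM in ASPC1 and 92.1 to 102 TPM in PANC1. HIF targets therefore did not share 1 direction between the lines. By the limma test 8 of 16 were higher in PANC1 and 6 lower, beside 44.6% and 27.9% of all genes. These counts are near the background and say nothing particular about HIF targets.

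The level of the 10 genes was also followed across libraries, as the mean of log2(TPM + 1) centred within each line. It was lowest in the first ASPC1 deltaNp63 library (-0.16) and highest in the second ASPC1 mock library (0.10). PFKP tracked this mean most closely among the 10 (r = 0.96) and PGK1 ran against it (r = -0.57), over the 12 libraries. Each of the 10 is part of this mean, which raises its own r. Outside the lists, among 10146 genes with a mean of at least 5 TPM, NACC1 (r = 0.991), GNAS (r = 0.986) and DGCR2 (r = 0.985) were the most alike, and DYNLL1 (r = -0.977) the least. These correlations describe the same 12 libraries and carry no test.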

How the data were processed

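RNA was measured in 12 libraries, and, per the labels' protocols, total RNA was made into libraries with a stranded mRNA kit. The authors deposited TPM per Ensembl transcript (153329 rows, each column summing to 1000000). The quantifier, genome build and annotation are not given in the sources used here. Rows were paired with genes through GENCODE v44 (hg38), which matched 91.2% of rows, and summed to gene levels that held 89.6% to 90.5% of each library's TPM. The filter asked for 1 TPM or more in 2 or more libraries, and tests ran on log2(TPM + 1), with a pseudocount of 1, a scale that understates the change of low genes. A model of 6 group means was fitted to all 12 libraries with limma 3.58.1 in R 4.3.3 (lmFit, contrasts.fit, eBayes with trend, 6 residual degrees of freedom). P-values were two-sided and adjusted by the Benjamini-Hochberg method within each of 9 comparisons. The fit was checked beforehand on simulated data. With no statement that replicates came from separate cultures, p-values measure the spread between these libraries. Comparisons with the same mock group share its libraries.

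The 10 genes and the gene lists were chosen with earlier results of these data known. Named list genes are those past the threshold, at most 3 with the largest difference for each list and comparison, from which a selection is described; a further result, for a gene outside the 10, is not reported here. Genes with a like pattern are the 3 highest and the 1 lowest Pearson correlations to the mean of the 10. PKM exon shares use transcripts that hold either exon in GENCODE. Alternatives were quantile normalization, no trend, other filters (none, or a mean of at least 5 TPM), a pseudocount of 0.1, fewer groups in the model, a replicate block, protein-coding transcripts only, named pseudogenes added to their genes, and leaving out each replicate; median centring was added after the data were seen. Sequences come from RefSeq (promoters, all 10 genes matched) and GENCODE (exons). The marker PECAM1 had no row in the gene sums. Figures were drawn with matplotlib 3.10.9.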

Additional observations from a re-analysis of the deposited data

How the results depend on the processing

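The number of the 10 genes called in ASPC1 with deltaNp63 was 1, and it became 0 with quantile normalization, with the groups compared only and with the 6 libraries of the line. It became 2 with the replicate block and 2 with protein-coding transcripts only. In ASPC1 with deltaNp63, the fits with a count of 0 called 1.35%, 0% and 0.0542% of all genes, in that order. Those with a count of 2 called 11.1% and 12.5%, beside 7.14% in the fit reported. Leaving out 1 replicate gave 0 to 5 there, 0 to 2 for TAp63 against deltaNp63 in ASPC1 and 0 to 4 for the deltaNp63 interaction. The share of all genes called also changed when 1 replicate was left out, as described above for some of these fits. The counts are to be read beside those shares. The cause was not tested. Counts in the other comparisons stayed within 1.5 times of those reported, from 6 to 8 between the mock groups and 0 elsewhere. Over all genes, ASPC1 deltaNp63 had 94 genes higher and 961 lower, against 51 and 148 with quantile normalization and 249 and 170 with median centring, which moved the median of all genes from -0.12 to 0.00 and 0.09.

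Some values that passed no test changed sign. With median centring, ASPC1 TAp63 against mock gave SLC2A1 0.12, HK2 0.098, PFKP 0.092, ALDOA 0.047, PKM 0.073 and LDHA 0.086, and HK2 was 0.073 with quantile normalization. With median centring, ASPC1 deltaNp63 gave ENO1 0.086, PKM 0.093 and LDHA 0.11, and PANC1 mock against ASPC1 mock gave PGK1 -0.0039 and PKM -0.13. HK1 for TAp63 against deltaNp63 in PANC1 was -0.012 with quantile normalization and -0.018 with median centring. Leaving out 1 replicate moved some values across 0. For ASPC1 TAp63 against mock the ranges were -0.076 to 0.052 for SLC2A1, -0.11 to 0.043 for HK2, -0.12 to 0.041 for PFKP and -0.078 to 0.29 for SLC16A3. For ASPC1 deltaNp63 they were -0.56 to 0.027 for SLC2A1 and -0.076 to 0.20 for HK2. For HK1 in PANC1 they were -0.11 to 0.15 with deltaNp63 and -0.12 to 0.14 for TAp63 against deltaNp63.

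Replicate numbers are shared between groups. Correlations of same-numbered deviations ran from -0.09 to 0.29, the highest between ASPC1 TAp63 and ASPC1 deltaNp63. Whether same-numbered libraries share more than a number was not tested. With the replicate block, HK1 (adjusted p = 0.0187) and PFKP (adjusted p = 0.0400) passed in ASPC1 with deltaNp63, 196 genes were higher and 1437 lower there, and PGK1 passed between the mock groups (adjusted p = 0.0266). Read depth is unknown, so no counting error or detection floor could be given.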
